A study of Mus musculus with 2 samples.

Results

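C1q macrophages of the neonatal mouse lung were followed in 2 single-cell libraries, 1 from room air and 1 from hyperoxia. They were selected from their counts, as cells in which 500 or more genes were detected and no more than 20% of transcripts were mitochondrial, and which held at least 1 UMI (unique molecular identifier, 1 counted mRNA molecule) of *Tyrobp* and at least 6 UMIs of *C1qa*, *C1qb* and *C1qc* together. Cells with 4 or more UMIs of the alveolar macrophage genes *Plet1*, *Atp6v0d2*, *Marco* and *Ear2*, with 3 or more UMIs of the nonclassical monocyte genes *Treml4*, *Adgre4* and *Ace*, or with any UMI of *Cd3e*, *Cd79a*, *Cdh5* or *Epcam* (T cell, B cell, endothelial and epithelial genes) were left out. The selection found 160 cells of the 15520 that passed the limits on genes and mitochondrial transcripts, 43 in room air and 117 in hyperoxia.

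Macrophages that express C1q live in the connective tissue of the lung, around vessels, airways and nerves, and are called interstitial macrophages to set them apart from the alveolar macrophages of the airspace. C1q is the recognition molecule of the classical complement pathway. C1q binds antibody complexes and dying cells, and macrophages are a main source of it. Interstitial macrophages present antigen on MHC class II molecules, clear dying cells, recycle iron and release chemokines, the secreted proteins that attract leukocytes. The counts carry no position, so where in the lung these cells lay is not known from them.

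Both libraries came from C57BL/6 mice at 2 weeks of age, with the lungs of 8 mice pooled in each. The pups were kept in room air (21% oxygen) or hyperoxia (80% oxygen) from the day of birth to postnatal day 14, an exposure that serves as a mouse model of bronchopulmonary dysplasia. Whole lungs were digested with enzymes, red cells were lysed, and no cell type was sorted. The authors deposited raw UMI counts for 4234 barcodes of room air and 13223 of hyperoxia, of which 3809 and 11711 were kept here, with medians of 8299 and 8009 UMIs. Each group is 1 library, so no test between the groups was possible, no standard deviation can be given, and the 95% intervals below reflect the error of counting alone, without the spread of mice or libraries. The libraries shared 17 barcode sequences, none of them among the C1q macrophages. *Xist*, which female cells express, had UMIs in 13 of the 43 and 38 of the 117 C1q macrophages (30.2 and 32.5%).

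C1q macrophages made up 1.13% of the cells kept in room air (exact interval 0.818 to 1.52%) and 0.999% in hyperoxia (0.827 to 1.20%). The difference was -0.13 percentage points, with an interval from -0.555 to 0.238, so no difference in their share was detectable at this number of cells. Over the same denominator, the share of alveolar macrophages was 5.51% in room air and 2.64% in hyperoxia, and that of nonclassical monocytes, which patrol the vessel wall, was 3.99% and 0.914%. Classical monocytes, the circulating precursors of many tissue macrophages, made up 2.73% and 2.07%. These 3 groups were selected by their own genes and are the ones C1q macrophages are compared with below.

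A C1q macrophage of room air held a median of 10705 UMIs and 3143 detected genes, and that of hyperoxia 9930 UMIs and 2974 genes. The median mitochondrial share was 2.74% in room air and 4.51% in hyperoxia. Summed over the cells, the libraries held 474873 and 1243242 UMIs, and the level of a gene is given as its counts per 1000000 of these summed UMIs (CPM). A gene with no UMI could have a level of up to 6.32 CPM in room air and 2.41 in hyperoxia, the worth of 3 UMIs. Room air, with 43 cells, limits the precision of every comparison.

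The limit of 6 C1q UMIs lay in a sparse stretch of values. Among cells that met all other criteria, none in room air and 6 in hyperoxia held 3 to 5 C1q UMIs, while 2 and 4 held 6 to 11, and 39 and 107 held at least 24. The 6 cells just outside the limit had 28.8 CPM of *Ms4a7*, which encodes a surface protein of macrophages, against 974 CPM in the hyperoxia cells with at least 24 C1q UMIs. The 4 hyperoxia cells with 6 to 11 C1q UMIs lay between them, at 165 CPM of *Ms4a7*.

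*C1qa*, *C1qb* and *C1qc* encode the chains that assemble into C1q, and they lie next to each other on the minus strand of chromosome 4 (GRCm38), *C1qb* at chr4:136880129-136886187, *C1qc* at chr4:136889804-136893065 and *C1qa* at chr4:136895917-136898803. As the selection used them, their levels are a description. The level of *C1qa* was 4555 CPM in room air and 4044 in hyperoxia, that of *C1qb* 4302 and 4035, and that of *C1qc* 2961 and 2535. The chains kept almost the same proportions in both libraries, as *C1qa* took 38.5% of the C1q UMIs in room air and 38.1% in hyperoxia, *C1qb* 36.4% and 38.0%, and *C1qc* 25.1% and 23.9%. A cell held between 7 and 354 C1q UMIs in room air (median 128) and between 6 and 441 in hyperoxia (median 109). In B cells, which do not make C1q and show how much free RNA each library carried, the 3 genes together reached only 5.65 CPM in room air and 10.5 in hyperoxia.

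Because these genes define the cells, the sequences before their starts are shown, from RefSeq on GRCm38.p6. The table matched *C1qb* and *C1qc*, and *C1qa* had no entry. Capitals mark GAGGAA, the core bound by the macrophage factor PU.1, and TGCTGA, the core of the element bound by MAF proteins, searched on both strands. Each line holds 250 bases that end at the base before the RefSeq start, which for *C1qc* lies inside the gene span given above.
C1qb, chr4:136886201-136886450, minus strand: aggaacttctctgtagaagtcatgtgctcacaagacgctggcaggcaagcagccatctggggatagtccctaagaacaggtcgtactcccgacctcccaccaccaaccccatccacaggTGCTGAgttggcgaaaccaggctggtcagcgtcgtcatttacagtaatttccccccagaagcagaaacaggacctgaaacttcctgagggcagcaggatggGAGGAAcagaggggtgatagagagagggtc
C1qc, chr4:136892915-136893164, minus strand: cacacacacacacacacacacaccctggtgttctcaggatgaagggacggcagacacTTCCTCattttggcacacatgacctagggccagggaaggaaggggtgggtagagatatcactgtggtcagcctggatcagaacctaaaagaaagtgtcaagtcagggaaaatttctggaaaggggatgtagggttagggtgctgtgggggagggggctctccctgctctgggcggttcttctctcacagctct
GAGGAA begins 30 bases before the start of *C1qb*, and its reverse complement 193 bases before that of *C1qc*. TGCTGA begins 131 bases before the start of *C1qb* and was not found in the window of *C1qc*. Of the 32851 windows of this length in the RefSeq table, 23.3% hold GAGGAA and 16.1% hold TGCTGA on either strand.

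Genes that the selection did not use gave the cells a macrophage profile. The 20 genes with the largest ratio over all other cells included *Ms4a7* and the chemokine genes *Pf4* and *Ccl12*. They also included *C3ar1*, the receptor of complement fragment C3a, *Adgre1*, which encodes F4/80, and *Mrc1*, the mannose receptor. *Ms4a7* was read at 1029.75 CPM in room air and at 916 CPM in hyperoxia, against 5.33 and 5.62 CPM in all other cells. *Apoe*, the lipid carrier apolipoprotein E, was the most abundant of the 20, at 24129 and 26064 CPM. All 20 genes of the macrophage core list, which holds *Csf1r*, *Cd68*, *Fcgr1* and *Maf* among others, had UMIs in both libraries and a mean of at least 50 CPM.

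Several genes of the neighbouring cell types were low. *Plet1*, *Siglecf* and *Marco*, defining genes of alveolar macrophages, had 0 UMIs in room air and 4, 1 and 3 UMIs in hyperoxia, although the selection itself limited *Plet1* and *Marco*. *Chil3*, which alveolar macrophages of these libraries carried at 5503 and 4142 CPM, was at 23.2 and 10.5 CPM. The classical monocyte gene *Ly6c2* had 3 UMIs in 1 room air cell and 36 UMIs in 4 hyperoxia cells. *Ccr2*, the other gene that selected classical monocytes, was more frequent, with UMIs in 10 of 43 room air and 25 of 117 hyperoxia cells. Its level and that of *Plac8* are given with the monocyte genes below. The dendritic cell genes *Flt3* and *Xcr1* had no UMI in either library.

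Markers of other cell types were present as well, and values without the cells rich in stromal genes, or without those that held endothelial, lymphocyte or neutrophil genes, are given where they bear on a result. The part of epithelial, erythroid and dendritic cell genes was not tested. The summed level of 8 stromal genes was 2234 CPM in room air and 2804 in hyperoxia, against 5353 and 4722 CPM in B cells, with a median of 3 UMIs per cell in both libraries but up to 465 UMIs in 1 room air cell and 1242 in 1 hyperoxia cell. Epithelial genes summed to 640.2 and 837 CPM (1072 and 2848 CPM in B cells), endothelial genes to 99.0 and 115 CPM, neutrophil genes to 56.9 and 70.8 CPM, and genes of T and NK cells to 4.21 and 12.9 CPM. B cell genes summed to 65.3 and 38.6 CPM and erythroid genes to 19.0 and 19.3 CPM. Dendritic cell genes summed to 114 and 24.9 CPM, of which *Fscn1* gave 94.8 and 9.65.

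MHC class II transcripts varied widely among the C1q macrophages of both libraries. The UMIs of *H2-Aa*, *H2-Ab1*, *H2-Eb1* and *Cd74*, which encode the antigen-presenting dimers and their invariant chain, ran from 0 to 644 per 10000 UMIs of a cell in room air and from 0 to 547 in hyperoxia. With a limit of 30 per 10000, chosen after the values were seen, 22 of 43 room air cells (51.2%, interval 35.5 to 66.7%) and 44 of 117 hyperoxia cells (37.6%, 28.8 to 47.0%) lay in the high range. The difference of -13.6 percentage points had an interval from -31.4 to 4.76. Limits of 15 and 60 gave differences of -4.15 and -7.67 points. Between 15 and 60 per 10000 lay 4 room air and 15 hyperoxia cells. The high and the low range are ranges of a level, and whether they are separate cell types was not tested.

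**Figure D1:**
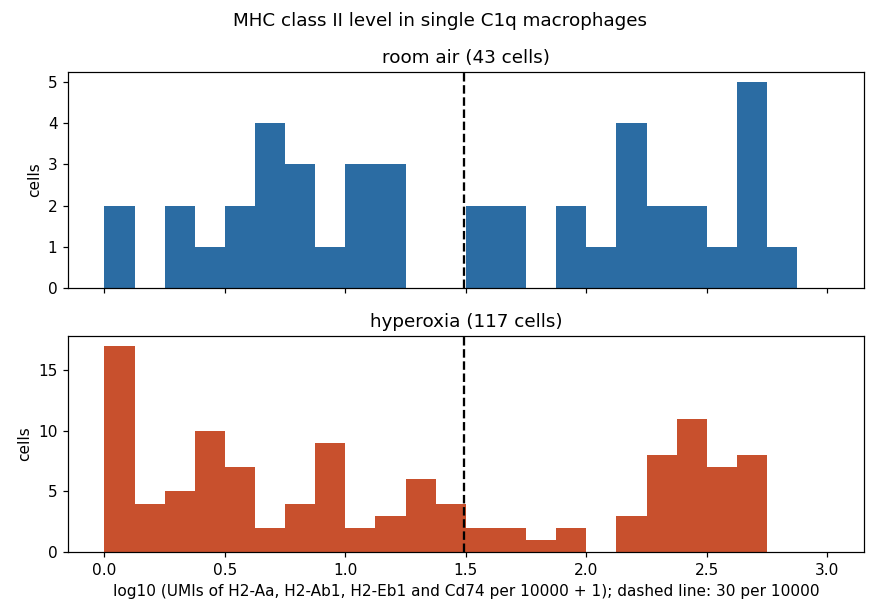
Histogram of the MHC class II level in C1q macrophages, 43 cells of room air (top) and 117 of hyperoxia (bottom). The horizontal axis is log10 of the UMIs of *H2-Aa*, *H2-Ab1*, *H2-Eb1* and *Cd74* per 10000 UMIs plus 1, the vertical axis is the number of cells, and the dashed line is 30 per 10000. Both libraries spread over low and high values, with 22 and 44 cells above the line.

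Other genes followed these ranges in both libraries. *Cd163* and *Folr2*, a haemoglobin scavenger receptor and a folate receptor of tissue-resident macrophages, were almost confined to the low range, with 40 of 41 and 138 of 139 *Cd163* UMIs there in room air and hyperoxia, and 32 of 33 and 61 of 66 *Folr2* UMIs. The 40 room air UMIs of *Cd163* lay in 2 cells, and the 138 of hyperoxia in 19. *F13a1*, which encodes a coagulation factor subunit, was read at 379 CPM in the low and 42.1 CPM in the high range of room air, and at 211 and 40.7 CPM in hyperoxia. *Gas6*, a ligand of the receptors that take up dying cells, was at 303 against 84.3 CPM in room air and 282 against 46.5 CPM in hyperoxia. In the high range, *Ccr2*, the chemokine receptor that monocytes use to enter tissue, reached 185 CPM in room air and 279 in hyperoxia, against 88.4 and 103 CPM in the low range. *Il1b*, which encodes an inflammatory cytokine, was at 982 and 1078 CPM in the high range and 484 and 482 CPM in the low range. The level of *Cd74* itself within the high range differed little between the libraries, with a log2 ratio of hyperoxia over room air of -0.04 (-0.09 to 0.02). As *Cd74* is part of the sum that sets the range, this value is a description.

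Stromal genes were also among those higher in the low range of both libraries. *Acta2*, smooth muscle actin, was at 152 CPM in the low and 12.6 CPM in the high range of room air and at 106 and 19.4 CPM in hyperoxia, and *Tagln*, a further smooth muscle gene, at 118 and 33.7 and at 110 and 40.7 CPM. *Igfbp7*, *Cyr61* and *Fhl1* were higher in the low range as well. The 8 genes of the stromal list summed to 2290 CPM in the low and 2179 CPM in the high range of room air, and to 4527 and 379 CPM in hyperoxia, where 1 low-range cell held 1242 of the 3290 UMIs. The median was 2 to 3.5 stromal UMIs per cell in every range, and their part in the differences between the ranges was not tested.

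Markers that are used to recognise perivascular interstitial macrophages were found in few cells. *Lyve1*, a hyaluronan receptor, had 2 UMIs in 2 room air cells and 78 UMIs in 16 of the 117 hyperoxia cells. *Cd163* had UMIs in 3 room air and 20 hyperoxia cells, *Folr2* in 8 and 19 cells, and *Timd4*, a receptor for dying cells, in 1 and 8 cells. Of the 38 hyperoxia UMIs of *Timd4*, 33 lay in 4 cells rich in *Prg4* and *Alox15* that are described further on. Of the 16 hyperoxia cells with *Lyve1*, 9 also held *Cd163* and 7 also held *Folr2*. With so few room air cells, a difference in these markers was not assessed, but *Lyve1* was also found in 3.46% of the hyperoxia B cells and *Cd163* in none of them.

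Hyperoxia was then compared with room air across all genes of the C1q macrophages, which asks whether these cells differed in expression after 14 days of high oxygen. Of 13859 genes with at least 1 UMI, 3092 had a mean of at least 50 CPM and entered the comparison, and the median of their log2 ratios, hyperoxia over room air, was -0.01. At least 2-fold higher in hyperoxia were 80 genes, or 2.59% of those compared, and at least 2-fold lower were 60 genes, or 1.94%. These shares are the background for the lists below, and the counts describe this pair of libraries only. With TMM scaling, which rescales each library by a factor, the numbers were 91 and 39, and the median log2 ratio was 0.06. Of the 80 higher genes, 60 were also higher in all other cells of the hyperoxia library, 9 of them at least 2-fold, and 29 had over 50% of their hyperoxia UMIs in 5 cells. Of the 60 lower genes, 54 were also lower in all other cells, 9 of them at least 2-fold. All other cells were summed in each library, and their mix of cell types differed. Alveolar macrophages were 5.51% of the cells kept in room air and 2.64% in hyperoxia, and nonclassical monocytes 3.99% and 0.914%. The part of this mix in the ratios of all other cells was not tested. The hyperoxia level of 38 of the 80 higher genes was below that of all other cells, as was the room air level of 7 of the 60 lower genes.

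**Figure D2:**
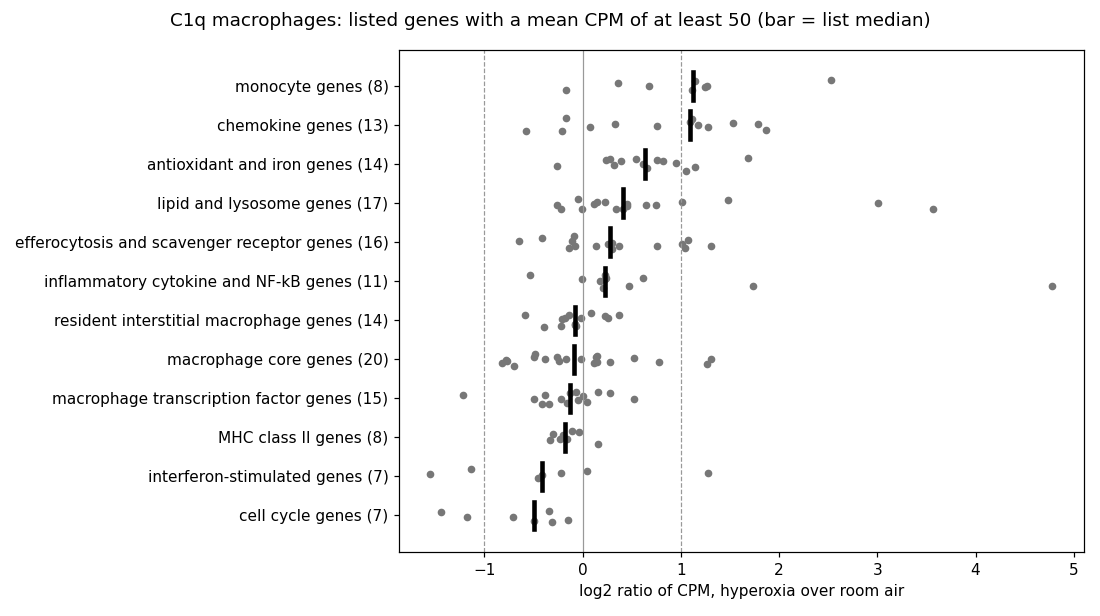
Log2 ratio of CPM, hyperoxia over room air, in C1q macrophages (horizontal axis) for the genes of 12 lists (vertical axis, with the number of genes that had a mean of at least 50 CPM). Points are genes, thick bars are list medians, and dashed lines mark 2-fold differences. Monocyte and chemokine genes lie furthest to the right, with medians of 1.13 and 1.10, and cell cycle genes furthest to the left, with a median of -0.49.

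*Lgals3* and *Vcam1* were among the 12 genes with the largest ratios of hyperoxia over room air. *Lgals3* encodes galectin-3, a sugar-binding protein that macrophages secrete, and was read at 71.6 CPM in room air and at 577 CPM in hyperoxia, an 8.05-fold ratio (log2 3.01, interval 2.51 to 3.55). It was found in 12 of 43 room air cells (27.9%, 15.3 to 43.7%) and 80 of 117 hyperoxia cells (68.4%, 59.1 to 76.7%), or in 9.52% and 45.2% after every cell was thinned to 2000 UMIs. B cells with an *Lgals3* UMI were 15.3% in room air and 11.9% in hyperoxia, at medians of 4621 and 2957 UMIs. Over all other cells the ratio was much smaller, with a log2 value of 0.26, and the difference between both log2 ratios was 2.75 (2.26 to 3.25). *Vcam1*, an adhesion molecule that binds leukocyte integrins, was read at 110 and 587 CPM (log2 2.42, 2.02 to 2.86), in 15 room air and 65 hyperoxia cells. The cell with the most *Vcam1* in room air had 6.09 UMIs per 10000, and the hyperoxia median was 2.82, so that the cells of both libraries overlapped while the hyperoxia cells reached up to 57.0. In thinned cells its log2 ratio was 3.14, and the cells with *Vcam1* were 14.3% and 42.6%, against 3.14% and 3.56% of B cells before thinning.

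*Lyz2*, the lysozyme of monocytes and macrophages, differed in the level per cell rather than in the number of cells that had it. It was read at 3115 CPM in room air and at 7503 CPM in hyperoxia (log2 1.27, 1.19 to 1.35), with medians of 22.2 and 43.4 UMIs per 10000 and UMIs in 43 of 43 and 114 of 117 cells. Over all other cells its log2 ratio was 0.01. *Wfdc17*, which encodes a secreted protein of the whey acidic protein family, was at 94.8 and 417 CPM (2.14, 1.70 to 2.61) and the actin-capping gene *Capg* at 25.3 and 113 CPM (2.16, 1.31 to 3.14), though its ratio was 0.55 in cells thinned to 2000 UMIs and 3.09 in cells with at least 12 C1q UMIs. *Erdr1* and *Fkbp5*, a target of glucocorticoids, had ratios of 3.34 and 3.51 on 5 and 4 room air UMIs, beside 2.77 and 1.89 in all other cells. In thinned cells these ratios were 2.45 and 2.35, and without the deepest 5% of cells *Fkbp5* was at 4.29. The MHC class II high and low ranges both showed the higher levels, with log2 ratios of 1.28 and 1.27 for *Lyz2*, 2.89 and 3.30 for *Lgals3*, and 1.69 and 3.28 for *Vcam1*.

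**Figure D3:**
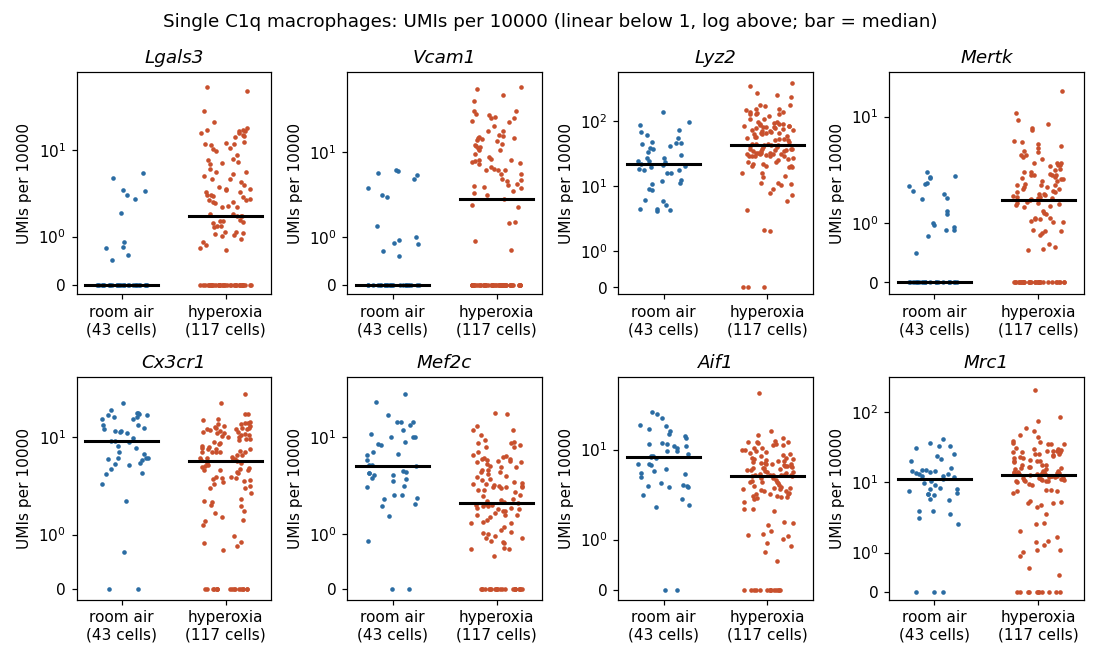
UMIs per 10000 in each C1q macrophage (vertical axis, linear below 1 and logarithmic above) in room air (43 cells) and hyperoxia (117 cells) for 8 genes chosen after their values were seen. Each point is a cell and the black bar is the median. *Lgals3*, *Vcam1*, *Lyz2* and *Mertk* reach higher values in hyperoxia, *Cx3cr1*, *Mef2c* and *Aif1* have lower medians there, and the medians of *Mrc1* are close, at 11.0 and 12.8.

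Of 18 monocyte genes, 8 were abundant enough to compare, and 5 of them were at least 2-fold higher in hyperoxia and none 2-fold lower (median log2 ratio 1.13, against -0.01 over all genes). Besides *Lyz2* these were *Fn1*, *S100a4*, *S100a6* and *Msrb1*. The list median was 1.15 in the MHC class II high range and 0.38 in the low range. In the low range *S100a4* was at 0.14 (-0.49 to 0.82) and *S100a6* at -0.16, but *Fn1* at 2.33 and *Msrb1* at 1.22. The high range of room air held 0 UMIs of *S100a4* and 1 of *S100a6*. *S100a4*, which encodes a calcium-binding protein of migrating cells, was read at 56.9 and 135 CPM (log2 1.25, 0.66 to 1.89), but in only 3 room air and 26 hyperoxia cells. *Fn1*, fibronectin, was at 168 and 968 CPM, with 92.5% and 61.9% of its UMIs in 5 cells of each library. Some hyperoxia cells with *Fn1* had no UMI of the macrophage gene *Csf1r*, as given further on. *Ccr2*, which defines classical monocytes, was at 137 and 176 CPM (log2 0.36, -0.04 to 0.79), and *Plac8* at 84.2 and 74.8 CPM (-0.17, -0.72 to 0.40). The list had a median of -0.02 in the classical monocytes, -0.45 in the nonclassical monocytes and -1.01 in the alveolar macrophages of the same libraries.

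Chemokine genes were the other list with many 2-fold ratios. Of 19 chemokine genes, 13 were compared, and 7 of them were at least 2-fold higher in hyperoxia and none 2-fold lower (median log2 ratio 1.10). *Ccl7*, which attracts monocytes through CCR2, was read at 88.4 CPM in 10 room air cells and at 306 CPM in 48 hyperoxia cells (log2 1.79, 1.33 to 2.29), and in 0 and 0.0962% of B cells. Without the cells that held at least 2 UMIs of endothelial, lymphocyte or neutrophil genes its ratio was 3.39, on 8 of the 42 room air and 252 of the 380 hyperoxia UMIs, and in thinned cells it was 1.30. *Ccl8*, from the same gene cluster, was at 71.6 and 208 CPM (1.54, 1.02 to 2.10), in 2 and 18 cells. *Ccl6* was at 114 and 416 CPM (1.87, 1.46 to 2.30), although it was also higher in all other cells, by 1.28.

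The inflammatory chemokines *Ccl3* and *Ccl4* had log2 ratios of 1.17 (0.79 to 1.57) and 1.12 (0.82 to 1.42), from 137 to 308 and from 232 to 503 CPM. *Ccl9* had a ratio of 1.10 and *Cxcl10*, an interferon-induced chemokine, of 1.28 (0.78 to 1.81), from 80.0 to 194 CPM. *Cxcl2*, which attracts neutrophils, was at 2106 and 3549 CPM (0.75, 0.65 to 0.85). Not every CCR2 ligand followed *Ccl7*. The level of *Ccl2* was 236 and 249 CPM (0.08, -0.24 to 0.40), and *Ccl12* was lower in hyperoxia, at 465 and 311 CPM (-0.58, -0.82 to -0.34). Of the 48 hyperoxia cells with *Ccl7*, 32 also held *Ccl2*, 30 held *Ccl12* and 30 held *Vcam1*, and of the 18 cells with *Ccl8*, 13 held *Ccl7*. Among chemokine receptors, *Ccr1* was higher in hyperoxia, at 126 and 274 CPM (1.12, 0.72 to 1.54). The list of 9 receptors had 6 genes compared, of which *Ccr1* alone differed 2-fold.

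Genes of iron and antioxidant metabolism were higher almost as a group. Of 14 such genes compared, 13 were higher in hyperoxia and 3 of them at least 2-fold, with a median log2 ratio of 0.64. *Slc40a1*, which encodes ferroportin, the channel that exports iron from macrophages, was read at 75.8 and 244 CPM (1.68, 1.18 to 2.23), in 17 of 43 and 63 of 117 cells. *Hmox1*, haem oxygenase-1, which releases iron from haem, was at 194 and 375 CPM (0.95, 0.63 to 1.29). The ferritin genes *Fth1* and *Ftl1* were at 7162 and 6621 CPM in room air and at 8429.6 and 8249 CPM in hyperoxia, with log2 ratios of 0.24 and 0.32. *Sod1*, *Txnrd1*, *Prdx1* and *Gpx1*, enzymes that remove reactive oxygen species or keep their targets reduced, had ratios of 1.15 (0.45 to 1.91), 1.05 (0.41 to 1.74), 0.76 (0.54 to 0.99) and 0.55 (0.37 to 0.72). The exception was *Trf*, transferrin, at 849 and 709 CPM (-0.26, -0.43 to -0.08). *Slc40a1* and *Hmox1* had log2 ratios of 0.09 and -0.17 over all other cells, and the same list had medians of 0.43 in alveolar macrophages, 0.24 in classical and -0.07 in nonclassical monocytes.

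Lysosomal, lipid and scavenging genes were higher in part. Of 17 lipid and lysosome genes compared, 4 were at least 2-fold higher and none 2-fold lower (median 0.42). The same list had medians of 0.80 in alveolar macrophages, 0.15 in classical and -0.33 in nonclassical monocytes. The protease gene *Ctsd* was read at 396 and 1101 CPM (1.48, 1.25 to 1.70), with medians of 3.07 and 8.49 UMIs per 10000, while its log2 ratio over all other cells was 0.66. *Ctsb*, *Lamp1*, *Plin2* and *Abca1*, for a further lysosomal protease, a lysosomal membrane protein, a lipid droplet protein and the cholesterol exporter, had ratios between 0.34 and 0.45. *Fabp5*, a fatty acid carrier, was at 21.1 and 249 CPM, but 1 hyperoxia cell held 107 of its 310 UMIs. Of 16 genes of efferocytosis, the uptake of dying cells, and of scavenger receptors, 4 were at least 2-fold higher (median 0.28). They included *Mertk*, a receptor tyrosine kinase for dying cells, at 71.6 and 177 CPM (1.31, 0.78 to 1.87), in 20 and 85 cells. Another was *Lrp1*, an endocytic receptor that also binds apolipoprotein E, at 150 and 314 CPM (1.07, 0.70 to 1.45). *Axl*, a related receptor, was at 232 and 286 CPM (0.30, -0.01 to 0.62), and *Gas6* at 194 and 184 CPM (-0.07, -0.43 to 0.29).

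The inflammatory list was mixed, with 2 of 11 genes at least 2-fold higher and a median of 0.23, which turned to -0.02 in thinned cells. *Ptgs2*, cyclooxygenase-2, had 2 UMIs in 2 room air cells and 144 UMIs in 20 hyperoxia cells (4.78, 2.90 to 7.84), a ratio that rests on very few room air molecules. *Osm*, the cytokine oncostatin M, was at 37.9 and 126 CPM (1.74, 1.03 to 2.53). *Il1b* was at 733 and 729.5 CPM (-0.01, -0.19 to 0.18) and *Tnf* at 194 and 220.2 CPM (0.18, -0.17 to 0.54), so that neither cytokine showed a difference at this depth. Of 6 p53 target genes compared, 1 was at least 2-fold higher (median 0.23), the stress cytokine gene *Gdf15*, at 221 and 459 CPM (1.05, 0.75 to 1.37), and *Cdkn1a*, which encodes the cell cycle inhibitor p21, was at 531 and 649.9 CPM (0.29, 0.09 to 0.50). The ratio of *Cdkn1a* in all other cells was far larger, at 2.27, and the difference of both log2 ratios was -1.98 (-2.19 to -1.77).

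In the complement system beyond C1q, 2 of the 7 genes compared were at least 2-fold higher and none 2-fold lower (median 0.14). *Cfp* encodes properdin, which stabilises the convertase of the alternative pathway, and was read at 86.3 and 295 CPM (1.77, 1.31 to 2.28). *Itgam*, a chain of complement receptor 3, was at 107 and 224 CPM (1.06, 0.63 to 1.52). The receptor genes *C3ar1* and *C5ar1* had ratios of -0.10 and 0.32, each with an interval that included 0.

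Several genes tied to macrophage identity were lower in hyperoxia, but the identity lists as a whole were not. Of the 20 core genes, 2 were at least 2-fold higher, *Lyz2* and *Mertk*, and none 2-fold lower (median -0.09). Of 14 resident interstitial macrophage genes compared, none differed 2-fold in either direction (median -0.07, which turned to 0.41 without cells that held at least 2 UMIs of endothelial, lymphocyte or neutrophil genes). *Mrc1* was at 1162 and 1396 CPM (0.26, 0.12 to 0.40) and *Igf1*, a growth factor, at 429.6 and 409 CPM (-0.07, -0.31 to 0.17). *Cx3cr1*, the fractalkine receptor, was lower, at 949.7 and 585 CPM (-0.70, -0.87 to -0.53), and *Csf1r*, the receptor for the growth factor on which macrophages depend, was at 1348 and 963 CPM (-0.49, -0.62 to -0.34). In the sum of all other cells both genes were lower by more, with ratios of -1.17 and -1.47. That sum held a smaller share of alveolar macrophages and nonclassical monocytes in hyperoxia, and the part of this was not tested.

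*Mef2c*, a transcription factor gene, had the only 2-fold difference among the 15 macrophage transcription factor genes compared (median -0.13). It was read at 634 CPM in room air and at 272 CPM in hyperoxia (-1.22, -1.45 to -0.99), with medians of 5.04 and 2.11 UMIs per 10000, and it was lower in both MHC class II ranges (-0.93 and -1.46). B cells use *Mef2c* themselves, so they give no background value for it. *Aif1*, which encodes the macrophage protein IBA1, was at 909.7 and 534 CPM (-0.77), almost the ratio in the sum of all other cells (-0.74). The part of the changed mix of cell types in that sum was not tested. The lectin gene *Mgl2* was at 253 and 118 CPM (-1.10, -1.45 to -0.74) and was the 1 gene of 7 compared in the alternative activation list that differed 2-fold (median 0.26). Of 9 growth factor genes, *Osm* and *Hbegf*, a ligand of the EGF receptor, were at least 2-fold higher (median -0.01).

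MHC class II genes were slightly lower, with 7 of 8 genes lower and none 2-fold (median -0.18). Within the MHC class II high range the list median was 0.01, and within the low range it was 0.32. Genes of this list set the ranges, so both medians depend on that choice and are a description. The high range held 51.2% of room air and 37.6% of hyperoxia cells, and the part of this share in the lower sums was not tested. *Cd74* was at 8509.6 and 6908 CPM (-0.30, -0.35 to -0.25), *H2-Aa* at 2413 and 2102 CPM (-0.20) and *H2-Eb1* at 1828 and 1449 CPM (-0.34), while *H2-DMa*, which loads peptides, was at 358 and 399.8 CPM (0.16, -0.09 to 0.42). Of 7 interferon-stimulated genes compared, 2 were at least 2-fold lower and *Cxcl10* was 2-fold higher (median -0.41, which was 0.01 without the cells that held endothelial, lymphocyte or neutrophil UMIs). *Ifi27l2a* was at 280.1 and 95.7 CPM (-1.55, -1.92 to -1.18) and *Ly6e* at 526 and 239.7 CPM (-1.14, -1.38 to -0.89). *Ifi27l2a* was as low in all other cells (-1.80). The interferon-stimulated list was lower in the other myeloid groups, with medians of -1.04 in alveolar macrophages, -1.02 in nonclassical and -0.99 in classical monocytes.

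Among the 12 genes with the lowest ratios, *H2-Q7*, a nonclassical MHC class I gene of a family of near-identical copies, was at 192 and 20.1 CPM (-3.25, -3.95 to -2.60). It was also low in all other cells (-1.20), in alveolar macrophages (-3.73) and in nonclassical monocytes (-2.95). *Fscn1*, the actin-bundling protein fascin, was at 94.8 and 9.65 CPM (-3.30, -4.35 to -2.35), in 11 room air and 8 hyperoxia cells, with a ratio of -0.09 in all other cells. Its ratio was -1.94 in thinned cells, -2.59 as a mean over single cells and -2.61 without the deepest 5% of cells. *Hsph1*, a heat shock protein gene, was at 145 and 49.9 CPM (-1.54, -2.06 to -1.03), *Lrrc8d*, a subunit of volume-regulated anion channels, at 137 and 47.5 CPM (-1.53), and *H2-M3*, a further MHC class I gene, at 94.8 and 24.1 CPM (-1.97). The leukocyte receptor gene *Lilra5*, *Gm11808* and the respiratory chain gene *Ndufa3* had ratios of -1.55, -1.69 and -1.41. In the sum of all other cells their ratios were -1.94, -1.36 and -0.85, and the part of the changed mix of cell types was not tested.

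All 7 cell cycle genes compared were lower in hyperoxia, 2 of them 2-fold (median -0.49). By MHC class II range, however, the list median was 0.41 in the high and -0.95 in the low range. The list had medians of -1.74 in alveolar macrophages, -0.67 in nonclassical and 0.44 in classical monocytes. The topoisomerase gene *Top2a* was at 112 and 41.0 CPM (-1.44, -2.03 to -0.86), but 96.2% of its room air UMIs were in 5 cells, and cells with a UMI of it were 16.3% in room air and 13.7% in hyperoxia. Without the deepest 5% of cells its ratio was -0.84, and that of *2810417H13Rik*, with 38 and 37 UMIs and a ratio of -1.43, turned to 0.23. *Mki67*, the proliferation marker Ki-67, had UMIs in 10 room air cells (23.3%) and 27 hyperoxia cells (23.1%). Thinned, these shares were 7.14% and 9.57%, so the number of cells with proliferation transcripts was not distinguishable between the libraries.

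A few genes with very large ratios were carried by a handful of cells. The lubricin gene *Prg4* and the lipoxygenase gene *Alox15* had 330 and 138 UMIs in hyperoxia, of which 328 and 138 lay in 4 cells. The room air library held 1 such cell, with 6 *Prg4* and 2 *Alox15* UMIs. These 5 cells, set apart after their values were seen as those with at least 5 UMIs of both genes together, had no *Cx3cr1*, at most 1 *Mrc1* UMI each, and all UMIs of *Selp* (7 in room air, 57 in hyperoxia), which encodes P-selectin. Further genes were chosen after their values were seen. The 4 hyperoxia cells held 33 of 35 UMIs of *Cd5l* and 26 of 28 of *Fabp4*. They held 29 of 41 UMIs of *Icam2* and 3 of 4 of *Gata6*. Whether these cells are interstitial macrophages was not tested. The 4 hyperoxia cells also held 624 of the 1204 *Fn1* UMIs, 79 of 123 of *Ednrb*, 77 of 135 of *Emilin2* and 1704 of 9328 of *Lyz2*, but 18 of 717 of *Lgals3* and none of *Vcam1* or *Ccl7*. Without them the log2 ratios were 3.11 for *Lgals3*, 2.48 for *Vcam1* and 1.84 for *Ccl7*, and the ratios of *Emilin2* and *Ednrb* dropped to 1.20 and 0.95.

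Matrix genes of stromal cells were concentrated in the same way. *Mfap4*, a microfibril protein gene of fibroblasts, was read at 107 and 935 CPM, with 90.2% of its hyperoxia UMIs in 5 cells, *Mgp* at 204 and 816 CPM with 83.5%, and *Npnt* at 6.32 and 144 CPM with 90.5%. Without the 3 room air and 9 hyperoxia cells with over 10 UMIs of stromal genes, 71 genes were at least 2-fold higher and 58 at least 2-fold lower, the chemokine median was 1.14 and the monocyte median 1.12.

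The comparison with the other myeloid groups shows which of these ratios they shared. *Lyz2*, *Fn1* and *Lgals3* had larger ratios in C1q macrophages than in the other 3 groups. Of the 1204 hyperoxia UMIs of *Fn1*, however, 624 lay in the 4 cells rich in *Prg4* and *Alox15*. *Lyz2* had log2 ratios of 0.35 in alveolar macrophages, -0.74 in nonclassical and -0.37 in classical monocytes. *Ccl6* was higher by the same amount in alveolar macrophages (1.88), and *Ctsd* was higher in all 4 groups (1.15, 0.95 and 0.24 in the other 3). The log2 ratio of *Lgals3* exceeded that of alveolar macrophages by 2.22 (1.72 to 2.72), that of nonclassical monocytes by 3.50 (2.99 to 4.01) and that of classical monocytes by 2.78 (2.28 to 3.29). *Cfp* and *S100a4* went the other way in alveolar macrophages, with ratios of -1.44 and -1.95. *Csf1r* was lower in all 4 groups, most in alveolar macrophages (-2.05). *Ccl7* was too low to be compared in the other 3 groups. Chemokine genes had medians of 1.88 in alveolar macrophages and 1.45 in nonclassical monocytes, with 5 genes compared in each. In classical monocytes their median was 0.35, with 7 genes compared, 2 of them at least 2-fold higher and 1 at least 2-fold lower. MHC class II genes had medians of -1.05, 0.90 and -0.24 in alveolar macrophages, nonclassical and classical monocytes. Genes of the response to tissue dissociation, which enzyme digestion can induce, had a median of 0.13 in C1q macrophages, with none of 14 at a 2-fold ratio.

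**Figure D4:**
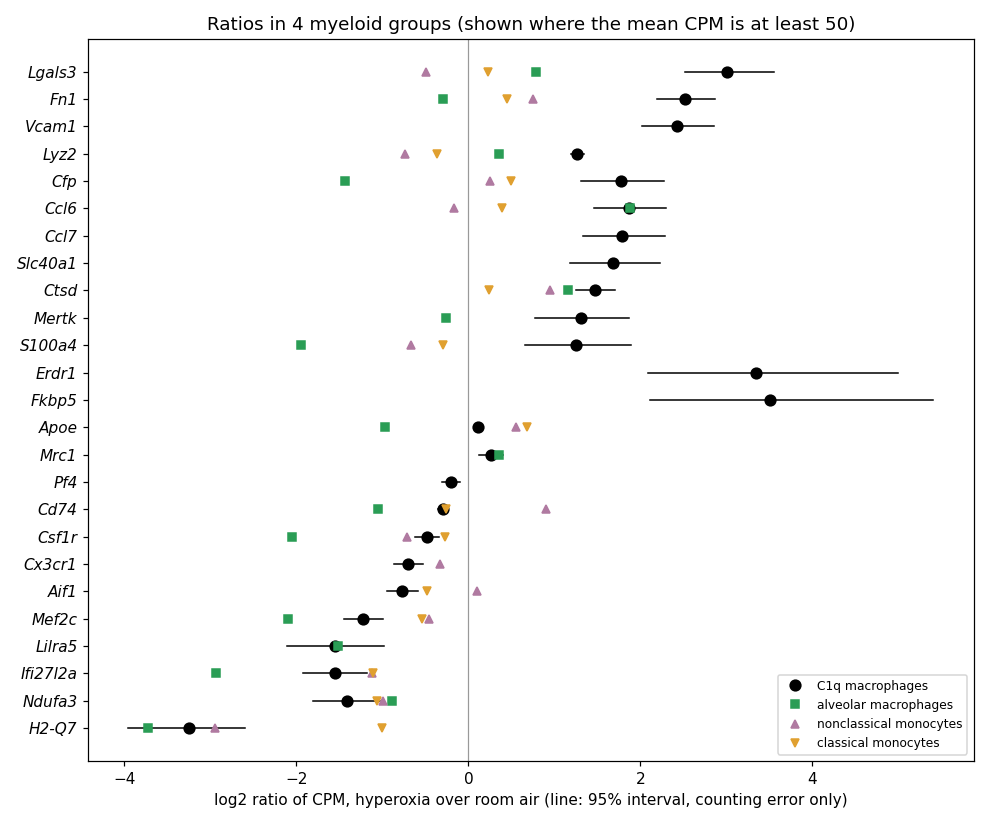
Log2 ratio of CPM, hyperoxia over room air (horizontal axis), for 25 genes (vertical axis, chosen after their values were seen) in C1q macrophages (black circles, lines are 95% intervals for counting error) and in alveolar macrophages (green squares), nonclassical (purple triangles) and classical monocytes (orange triangles), each shown where the mean is at least 50 CPM. *Lgals3* is at 3.01 in C1q macrophages and between -0.49 and 0.79 in the other 3 groups, while *H2-Q7* is below 0 in all 4.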

How the data were processed

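Single-cell RNA-seq was analysed for 2 libraries of mouse lung, 1 per group, each from 8 pooled mice. The authors deposited raw UMI counts per gene and barcode for 27998 genes (10x Genomics, mm10 transcriptome), with no normalization. The labels' processing notes name Cell Ranger 2.1.1, the protocol text 6.1.1 and the matrix headers software version 3.1.0, and the labels and the study's methods name different versions of the kit. Counts of pooled mice from 1 library have no replicate, so every statement describes this pair of libraries.

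C1q macrophages, alveolar macrophages, nonclassical and classical monocytes were selected by limits on raw counts. Alveolar macrophages had at least 4 UMIs of *Plet1*, *Atp6v0d2*, *Marco* and *Ear2*, nonclassical monocytes at least 3 of *Treml4*, *Adgre4* and *Ace*, and classical monocytes at least 3 of *Ly6c2* and *Ccr2*, each with *Tyrobp* and under the limits of the other groups. B cells, with at least 2 UMIs of *Cd79a* and none of *Tyrobp*, *Cd3e*, *Cdh5* or *Epcam*, served as the background of free RNA. No doublet caller was run, and only the limits on genes of other cell types removed doublets. The members and gene lists were chosen with earlier results of these data known, and of 363 listed genes 356 were found. Gene IDs were matched to symbols for 27645 of 27998 genes, and gene spans are from GENCODE on GRCm38.

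UMIs were summed over the cells of a group and divided by their total (CPM). Log2 ratios of hyperoxia over room air have exact conditional 95% intervals, shares Clopper-Pearson and CPM Poisson intervals. Intervals of differences combine those of both values. Genes with a mean of at least 50 CPM in the C1q macrophages were compared, and a ratio of at least 2-fold was counted, with no test. A gene below 50 CPM in 1 library could enter through the other. Shares of cells with a UMI were repeated after thinning each cell to 2000 UMIs, with 1 and 2 shallower C1q macrophages left out. Named genes were the list members, the 12 largest and the 12 smallest ratios among genes at least as high as in all other cells, and the 20 genes with the largest ratio over all other cells and at least 200 CPM, without genes of the selection and mitochondrial, ribosomal protein, haemoglobin, immunoglobulin and sex-linked genes. Genes named outside this rule are said to be chosen after their values were seen, as are *Selp*, *Mgp*, *Npnt*, *Tagln*, *Igfbp7*, *Cyr61* and *Fhl1*. Alternatives changed the cell filter, the C1q limit, the scaling, the weight of cells, the depth and the filter on low genes. Python 3.11.15, numpy 2.4.6, scipy 1.17.1, pandas 2.3.3 and matplotlib 3.10.9 were used, and edgeR 4.0.16 (R 4.3.3) gave the TMM factors. The scripts were tested on simulated counts.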

Additional observations from a re-analysis of the deposited data

Results flagged for a closer look

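Some genes were at least 2-fold higher in the C1q macrophages of hyperoxia and at least 2-fold lower in another myeloid group, or the reverse. With 1 library per group the difference was not tested, and the intervals cover counting error only. Against alveolar macrophages, the log2 ratios of hyperoxia over room air were 1.77 and -1.44 for *Cfp*, 1.25 and -1.95 for *S100a4*, 1.11 and -1.29 for *S100a6*, and 1.29 and -2.09 for *Adgre5*, which encodes the leukocyte surface protein CD97. The difference for *Adgre5* was 3.38 (2.81 to 3.96), and its UMIs lay in 18 of 43 and 68 of 117 C1q macrophages. *Emilin2* had ratios of 2.10 and -1.13, and 77 of its 135 hyperoxia UMIs were in the 4 cells rich in *Prg4* and *Alox15*. The stromal gene *Aspn* had 2.83 and -2.24, with 174 of its 223 hyperoxia UMIs in 1 cell. Against nonclassical monocytes, *Igfbp5* had -5.22 and 1.34, with 57 room air UMIs in 3 cells, *Ltbp2* had -1.15 and 1.75, with 50 of its 56 room air UMIs in 1 cell, and *Tnfaip2*, which tumour necrosis factor induces, had 1.02 and -1.06. Against classical monocytes, *Cxcl10* had 1.28 and -3.07, a difference of 4.35 (3.55 to 5.14).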

How the results depend on the processing

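Of 163 recomputed counts, medians and shares, 149 stayed within the limits set for them and 14 moved. The number of genes at least 2-fold higher was 80 and that of lower genes 60. They were 230 and 212 at a mean of at least 20 CPM, 44 and 17 at 100 CPM, 981 and 1400 for all genes with at least 1 UMI in each library, 257 and 268 in cells thinned to 2000 UMIs, and 264 and 262 at 1.5-fold. With TMM factors the lower genes were 39. The cause of the change with TMM factors or in thinned cells was not tested. Without the cells that held at least 2 UMIs of endothelial, lymphocyte or neutrophil genes (28 and 88 cells left, an alternative chosen after seeing the data), the medians were -0.31 for MHC class II, 0.41 for resident macrophage and 0.0054 for interferon-stimulated genes, and the cause was not tested. Over all alternatives the medians ran from 0.72 to 1.41 for monocyte, 0.77 to 1.22 for chemokine, 0.42 to 0.71 for antioxidant and iron, and 0.30 to 0.58 for lipid and lysosome genes. The difference in the share of C1q macrophages ran from -0.144 to 0.0163 points. Of 284 values of single genes, 263 stayed within their intervals, 20 moved and 1 reversed, *2810417H13Rik*, at 0.23 without the deepest 5% of cells. *Lgals3* ran from 2.70 to 3.47 and *Vcam1* from 2.37 to 3.14, while *Capg* was 0.55 in thinned cells, *Fscn1* -1.94, and *Prg4* 2.25. Leaving out cells with transcripts of any other lineage left 2 and 1 cells, so it gave a share but no gene values. No paired analysis was possible because each group is 1 library, and for the same reason no replicate could be left out. The depth of 43 room air cells limits low genes most, as the interval reached a median of 0.47 to either side of the log2 ratio for monocyte and 0.12 for MHC class II genes.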
